A study of Oryza sativa with 8 samples.

Results

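NAC transcription factors are a family of DNA-binding proteins found only in plants. Of the 55801 loci in the table, 124 carry an annotation that names either a no apical meristem protein (114 loci) or a NAC domain (10 loci), and these 124 are the NAC loci described here. The rule reads the annotation text and uses no measured value. The family is named after its first known members, NAM of petunia and the ATAF and CUC genes of Arabidopsis. A conserved domain at the amino end binds DNA and pairs the proteins, and a variable carboxyl end acts on transcription. Members are best known for setting organ boundaries at the shoot meristem, for switching on secondary wall formation in vessels and fibres, for leaf senescence, and for responses to drought, salt, wounding and abscisic acid. The table gives no gene name for most of the loci, so they are called by locus identifier, and no role is given to a single one of them.

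All plants were wild type rice of the cultivar Nipponbare. The coleoptile is the sheath that covers the emerging shoot of a grass seedling, and it was taken at 2 days. The first leaf was taken at 3 days, so tissue and age cannot be told apart in any comparison between them. Germination began in sterile water at 37 °C over 24 h, and growth followed at 28 °C with white light until the treatment. For each tissue, 2 libraries came from seedlings left in white light and 2 from seedlings given 1 h of simulated shade, in which red light was 16, blue light 1.3 and far-red light 48 µE per square metre per second. This makes 4 groups of 2 libraries, 8 in all. Nothing in the labels says that replicates were separate cultures. The p-values therefore cover no more than the spread among these libraries, and that may be technical. In whole tissue, fewer cells of a type and less RNA per cell cannot be told apart.

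FPKM (fragments per kilobase of transcript, scaled to library size) summed to 696059 to 808054 per library, and 26693 to 28127 loci were above 0. The number of fragments per library is not given in the sources used here, so no counting interval can be set on a value. Replicates correlated across loci at r = 0.914 in the white light coleoptile and at 0.975 to 0.982 in the other groups. Markers of green leaf tissue (21 loci of chlorophyll-binding proteins and the small Rubisco subunit) summed to 15957 to 26005 FPKM in the coleoptile and to 35598 to 46002 FPKM in the first leaf. No marker of the coleoptile was listed, so that label was not checked in this way. Seed storage proteins (43 loci, of which 35 were listed at 0 throughout) summed to 1.07 to 2.61 FPKM. Of the root markers, LOC_Os02g44310 stood at 30.0 and 136 FPKM in the shaded coleoptile and at 0.663 to 6.48 FPKM in the other groups, while LOC_Os02g51110, an aquaporin, was 4.35 to 24.3 FPKM. The part of the leaf and root markers in the NAC differences was not tested.

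Most of the family was present at low levels in both tissues. Of the 124 loci, 25 (20.2%) were listed at 0 in all 8 libraries, against 41.0% of all loci in the table. Another 34 were above 0 but had a mean under 1 FPKM, the level set for testing, and 65 (52.4%) reached it, against 37.7% of all loci. Just inside this limit was LOC_Os03g01870 with a mean of 1.03 FPKM, and just outside it was LOC_Os09g38000 with 0.962 FPKM. Of the 34 loci under the limit, 6 reached 1 FPKM in some library, with 1.97 FPKM the highest. The median of the means was 8.05 FPKM for the 65 tested NAC loci and 11.9 FPKM for all 21014 tested loci. Only 29 of the 65 had a mean of at least 10 FPKM.

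A few loci made up most of the family's transcripts. The 10 with the highest means held 55.1% to 66.3% of the summed NAC FPKM of a library. LOC_Os03g60080, annotated as NAC domain-containing protein 67, had the highest mean at 222 FPKM. It stood at 536 and 282 FPKM in the white light coleoptile, 93.6 and 76.1 in the shaded coleoptile, 296 and 128 in the white light first leaf and 167 and 196 in the shaded first leaf. The order of the 4 groups for this locus rests on white light libraries that were far apart within each tissue. LOC_Os05g35170 was next with a mean of 165 FPKM, and it held between 133 and 210.5 FPKM in every library.

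**Figure D1:**
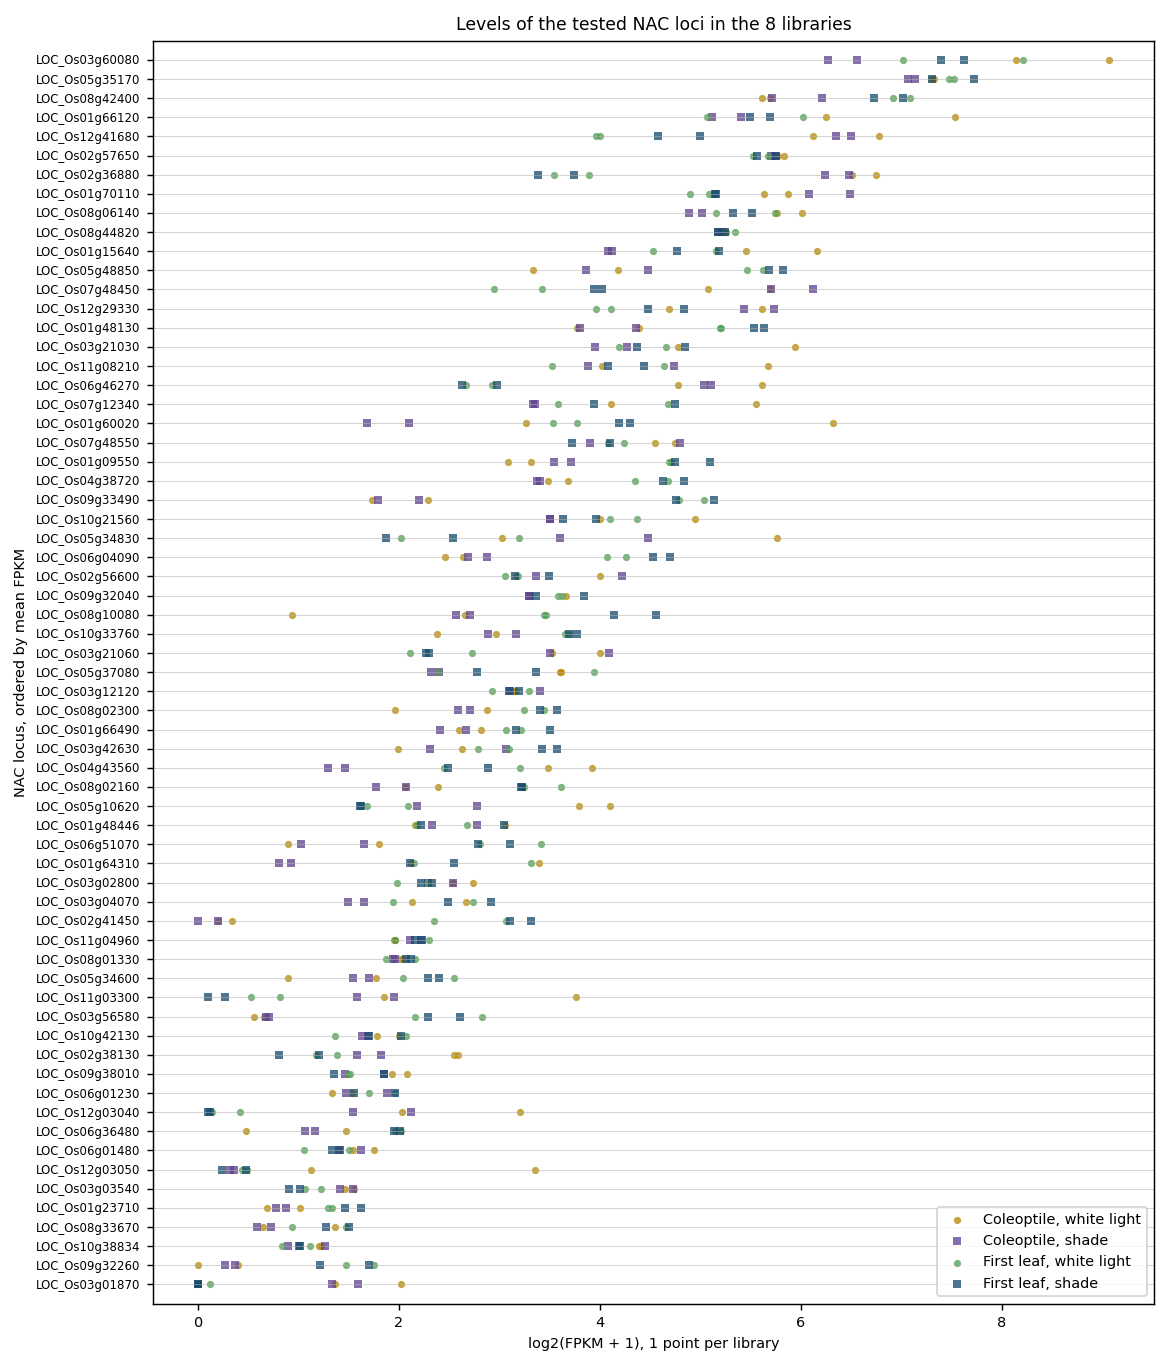
FPKM of the 65 tested NAC loci in each of the 8 libraries, with log2(FPKM + 1) on the x axis, 1 row per locus ordered by mean FPKM, and 1 point per library coloured by group. LOC_Os03g60080 and LOC_Os05g35170 are at the top, and in rows such as LOC_Os02g36880 and LOC_Os09g33490 the coleoptile and first leaf points lie well apart.

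Some members were close to level in all 8 libraries. LOC_Os08g44820 lay between 35.0 and 39.8 FPKM, the smallest spread over the 8 libraries on the log2 scale of any tested NAC locus. LOC_Os08g01330 ranged from 2.66 to 3.45 FPKM and LOC_Os02g57650 from 44.9 to 55.9 FPKM. For these loci the coleoptile and first leaf values overlapped.

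The loci are spread over all 12 chromosomes, as read from the identifiers, with 15 on chromosome 1 and 5 on chromosome 4. Their share above the testing level differed between chromosomes, and that of all loci was not worked out by chromosome. On chromosome 8, 8 of 10 were tested, whereas 3 of 13 were tested on chromosome 7 and 3 of 11 on chromosome 11. Loci that follow each other directly in the table form 7 groups of NAC neighbours with 16 loci, of which 4 were tested and 7 were listed at 0 throughout. The run of LOC_Os11g31330, LOC_Os11g31340 and LOC_Os11g31360 was listed at 0 in every library. Of a pair on the same chromosome, LOC_Os11g03310 had a mean of 0.00203 FPKM, while LOC_Os11g03300, annotated as a NAC domain transcription factor, was 12.6 and 2.59 FPKM in the white light coleoptile, 2.85 and 2.00 in the shaded coleoptile, 0.754 and 0.437 in the white light first leaf and 0.0659 and 0.201 in the shaded first leaf. All of its coleoptile values were above all of its first leaf values, but the differences of -2.14 and -1.59 did not pass (adjusted p = 0.0526 and 0.13). Reads from near-identical copies can be split between them in such groups, so values of neighbours are uncertain.

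How the tissues differ was asked in each light. Between first leaf and coleoptile, 20 NAC loci differed in the same direction in both lights, 12 higher in the first leaf (3.88% of all tested loci were so) and 8 higher in the coleoptile (3.09%). In white light the largest differences were those of LOC_Os09g33490, higher in the first leaf, and LOC_Os02g36880, higher in the coleoptile. In shade LOC_Os02g41450 had the largest, again higher in the first leaf. Differences are given in units of log2(FPKM + 1), where 1 unit is about 2-fold for a well-expressed locus. The white light and shade comparisons use different libraries, although they share the estimate of the spread.

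LOC_Os09g33490 stood at 3.89 and 2.32 FPKM in the white light coleoptile and 3.60 and 2.45 in the shaded coleoptile. Its first leaf values were 26.6 and 31.9 FPKM in white light and 26.0 and 34.2 in shade. All 4 first leaf libraries were therefore far above all 4 coleoptile libraries. The difference was 2.90 ± 0.27 in white light (SE, limma adjusted p = 0.00128) and 2.95 ± 0.27 in shade (adjusted p = 0.00117).

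LOC_Os02g41450 was near 0 in the coleoptile. It was 0.262 and 0.146 FPKM in the white light coleoptile and 0 and 0.143 in the shaded coleoptile, with the first of these shade values listed at 0. In the first leaf it reached 7.39 and 4.10 FPKM in white light and 7.59 and 8.94 in shade. Groups did not overlap between tissues, and the differences were 2.44 ± 0.28 and 3.11 ± 0.28 (adjusted p = 0.00293 and 0.00124). It reached the limit for testing only through the first leaf. On the log2(FPKM + 1) scale such a difference understates the ratio of a locus this low in 1 tissue.

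LOC_Os06g04090 was 5.24 and 4.49 FPKM in the white light coleoptile and 6.32 and 5.41 in the shaded coleoptile, and in the first leaf it was 15.8 and 18.1 in white light and 22.2 and 25.0 in shade. Its differences were 1.62 ± 0.18 and 1.84 ± 0.18 (adjusted p = 0.00244 and 0.00157). The lowest first leaf library was above the highest coleoptile library. LOC_Os01g09550 had a similar pattern, with 8.92 and 7.49 FPKM in the white light coleoptile, 12.1 and 10.7 in the shaded coleoptile, 25.1 and 24.8 in the white light first leaf and 25.9 and 33.2 in the shaded first leaf. It was higher in the first leaf by 1.50 ± 0.18 in white light and 1.29 ± 0.18 in shade.

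Among more abundant members, LOC_Os08g42400 stood at 48.0 and 50.8 FPKM in white light and 73.3 and 51.5 in shade in the coleoptile. First leaf values of this locus were 135 and 119.9 FPKM in white light and 105 and 128 in shade, above every coleoptile value. LOC_Os05g48850 was 17.1 and 9.09 FPKM in the white light coleoptile, 21.3 and 13.5 in the shaded coleoptile, 48.4 and 43.0 in the white light first leaf and 50.3 and 55.5 in the shaded first leaf, again without overlap. The differences were 1.35 ± 0.21 and 0.91 ± 0.21 for LOC_Os08g42400, and 1.79 ± 0.31 and 1.58 ± 0.31 for LOC_Os05g48850.

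The other 6 loci higher in the first leaf in both lights were LOC_Os03g56580 (by 1.89 in white light and 1.76 in shade), LOC_Os06g51070 (1.76 and 1.61), LOC_Os09g32260 (1.42 and 1.14), LOC_Os08g02160 (1.21 and 1.30), LOC_Os01g48130 (1.12 and 1.50) and LOC_Os04g38720 (0.93 and 1.34). LOC_Os03g56580 illustrates the low members, at 0.467 and 0.578 FPKM in the white light coleoptile and 3.47 and 6.07 FPKM in the white light first leaf.

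**Figure D2:**
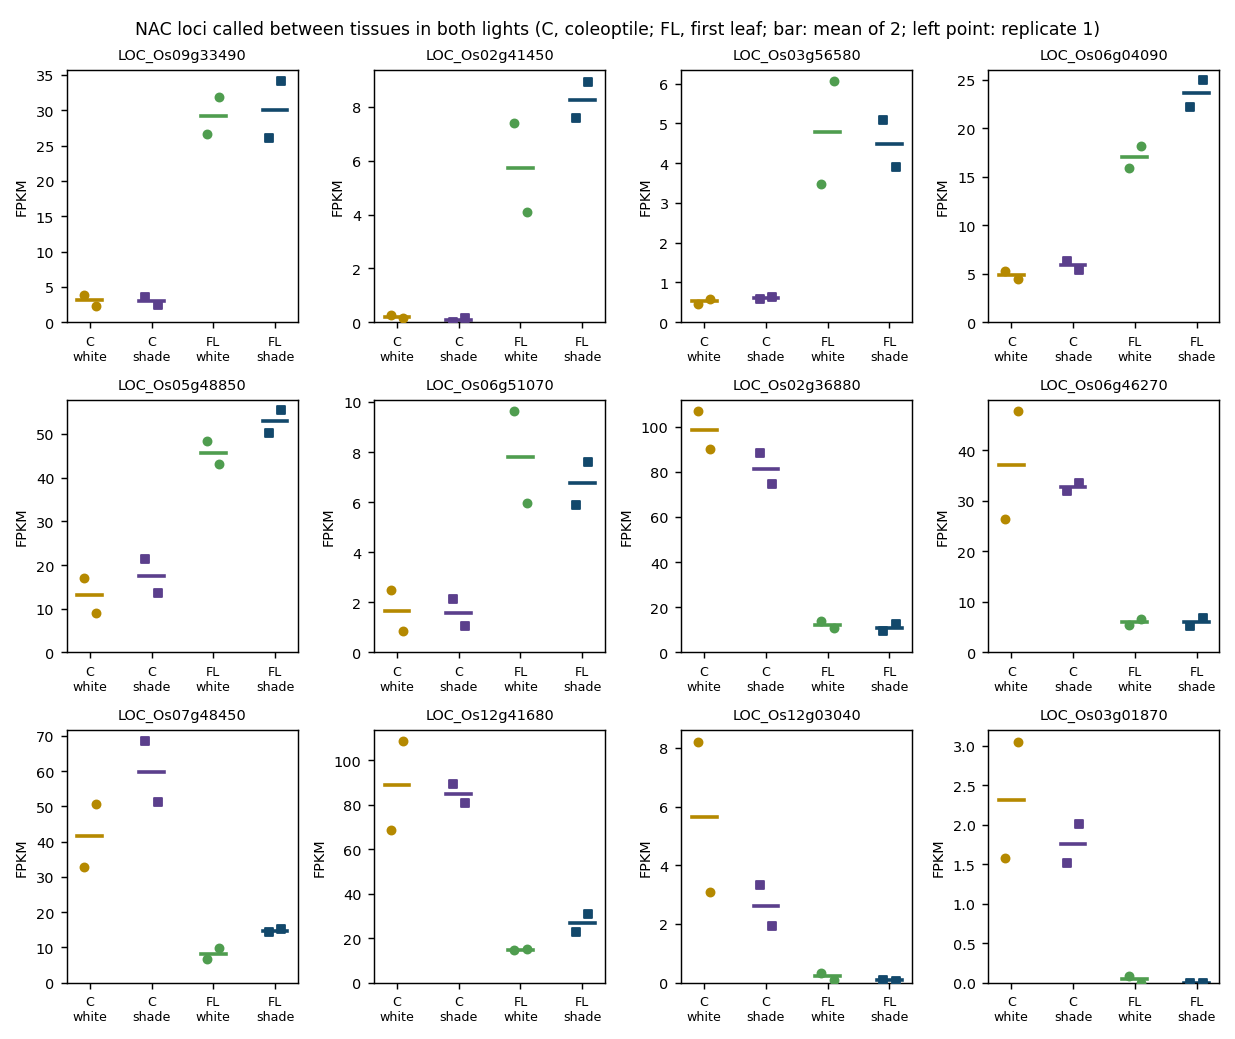
FPKM per library of NAC loci that differed between the tissues in both lights, on linear axes that start at 0, with 1 point per library, groups along the x axis and bars for the mean of 2. For LOC_Os09g33490 the 4 first leaf points lie at 26.0 to 34.2 FPKM and the 4 coleoptile points at 2.32 to 3.89 FPKM, and LOC_Os02g36880 shows the opposite order.

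Among the loci higher in the coleoptile, LOC_Os02g36880 stood at 107 and 90.2 FPKM in white light and 88.3 and 74.5 in shade. In the first leaf it was 13.9 and 10.6 FPKM in white light and 9.42 and 12.4 in shade, so that the tissues did not overlap. It differed by -2.92 ± 0.21 in white light (adjusted p = 0.000482) and by -2.80 ± 0.21 in shade (adjusted p = 0.000553), with negative values meaning lower in the first leaf.

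LOC_Os12g41680 was 68.8 and 109 FPKM in the white light coleoptile and 89.5 and 80.7 in the shaded one. Its first leaf values were 14.6 and 15.0 FPKM in white light and 23.0 and 31.0 in shade. The tissues did not overlap, although the gap was narrower in shade, with differences of -2.47 ± 0.25 and -1.63 ± 0.25. The difference between these gaps is the difference of shade responses, which no NAC locus passed.

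LOC_Os06g46270 stood at 26.3 and 47.8 FPKM in the white light coleoptile, 31.9 and 33.5 in the shaded coleoptile, 5.36 and 6.61 in the white light first leaf and 5.18 and 6.85 in the shaded first leaf. LOC_Os07g48450 had 32.7 and 50.6 FPKM in the white light coleoptile and 68.6 and 51.2 in the shaded one, then 6.73 and 9.73 in the white light first leaf and 14.3 and 15.3 in the shaded one. Both were lower in every first leaf library than in any coleoptile library. The differences were -2.39 ± 0.29 and -2.28 ± 0.29 for the former, and -2.19 ± 0.27 and -1.93 ± 0.27 for the latter.

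The remaining loci higher in the coleoptile in both lights were LOC_Os12g03040 (-2.35 in white light and -1.72 in shade), LOC_Os03g01870 (-1.63 and -1.46), LOC_Os03g21060 (-1.35 and -1.52) and LOC_Os01g70110 (-0.76 and -1.14). LOC_Os03g01870 was 1.57 and 3.05 FPKM in the white light coleoptile and 1.51 and 2.00 in the shaded one, and 3 of its 4 first leaf values were listed at 0. It passed the limit for testing only through the coleoptile, and so had to differ.

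In white light, 23 of the 65 tested NAC loci (35.4%) were called, 13 higher and 10 lower in the first leaf. Over all tested loci, 11.0% were called in that comparison, 5.92% higher and 5.03% lower. In shade, 21 NAC loci (32.3%) were called, 13 higher and 8 lower, against 10.3% of all tested loci, 5.67% higher and 4.63% lower. The 20 called in both lights are 30.8% of the tested NAC loci, against 7.01% of all tested loci, and 0 were called in opposite directions, against 0.0381%. Of these 20, 5 had a mean under 1 FPKM in the lower tissue, and such loci pass the limit for testing through the higher one. With a limit of 5 FPKM, 41 NAC loci were tested, and 16 were called in white light and 15 in shade, against 11.3% and 10.4% of all loci tested there. Shares of tested loci are descriptions, and whether the family stands apart from other loci was not tested.

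Differences ran in both directions. The median difference of the tested NAC loci was -0.20 in white light and 0.33 in shade, against 0.02 and 0.00 over all tested loci. In each light 28 NAC loci (43.1%) differed by more than 1 unit of log2(FPKM + 1), against 14.6% and 13.5% of all tested loci. All 4 first leaf libraries were above all 4 coleoptile libraries for 19 NAC loci and below them for 12, where 13.7% and 11.3% of all tested loci did so. Without coleoptile white light replicate 1 the white light median was 0.01, with 32 negative differences in place of 39, and without replicate 2 it was -0.33. The shade median was 0.54 and 0.21 without shaded first leaf replicate 1 and 2.

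Counts of calls moved with the library left out, for the NAC loci and for all tested loci alike. The number called in white light was 10 without either white light first leaf library (3.53% and 3.79% of all tested loci). The number called in shade was 7 without either shaded coleoptile library (3.35% and 2.57% of all). It was 7 and 6 without shaded first leaf replicate 1 and 2 (3.94% and 3.04%), and 34 without either white light coleoptile library (20.3% and 20.1%). With only the 4 libraries of the comparison in the fit, it was 8 in white light and 36 in shade (2.51% and 19.1% of all). In the main fit the SE of a locus pools the spread of all groups, and is not that of the groups compared. Replicates lay over 1 unit of log2(FPKM + 1) apart for 3167 tested loci in the white light coleoptile. In the other groups this held for 299 to 566 loci.

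Of the 20 loci, 4 were called in both lights under every alternative in which they were tested: LOC_Os02g36880, LOC_Os02g41450, LOC_Os06g04090 and LOC_Os09g33490. Of these, LOC_Os02g41450 reached the limit for testing only through the first leaf and so had to differ, which leaves 3 whose tissue means were both above that limit. LOC_Os06g46270 lost its call only in white light, with only the libraries of the comparison in the fit. The other 15 lost it in at least 1 light when a library was left out. Leaving out 1 of the 2 shaded first leaf or shaded coleoptile libraries ended 13 or 14 of the 20 calls in shade. Leaving out either white light first leaf library ended 11 of the 20 in white light.

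**Figure D3:**
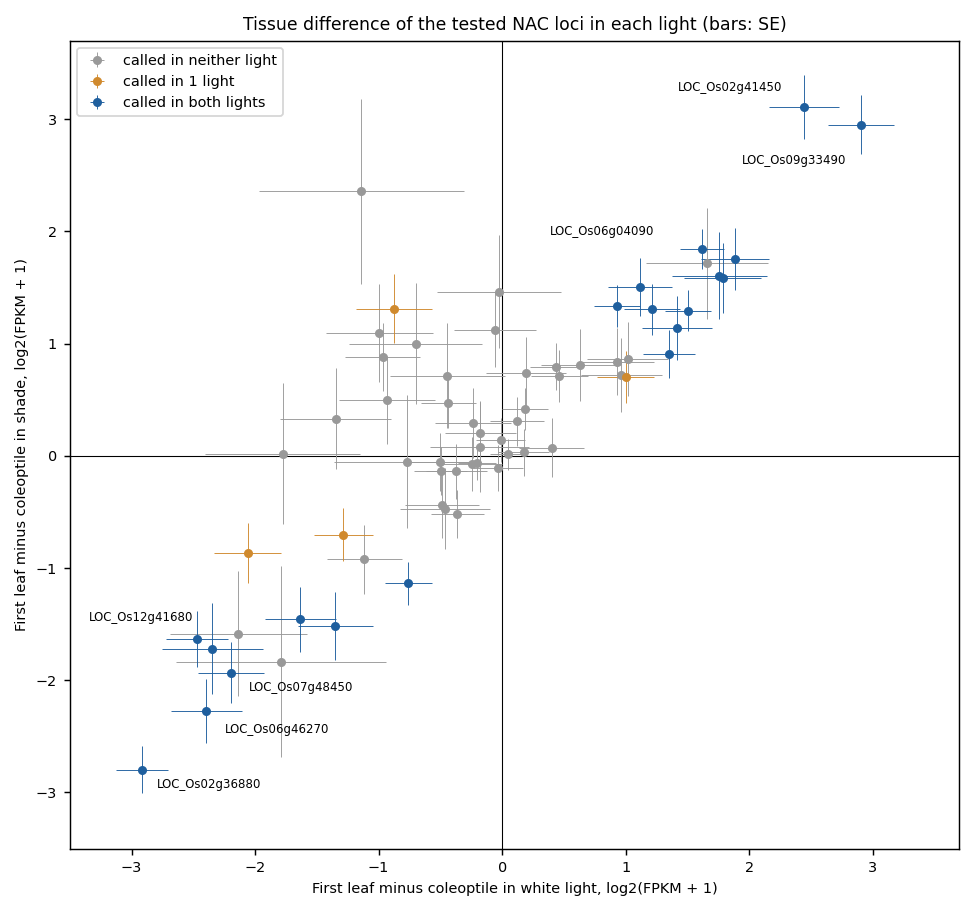
Difference between first leaf and coleoptile of each tested NAC locus in white light (x axis) and in shade (y axis), both in log2(FPKM + 1), with bars for limma's SE. The 20 loci called in both lights lie in the upper right and lower left, and the ends are LOC_Os09g33490 at 2.90 and 2.95 and LOC_Os02g36880 at -2.92 and -2.80.

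Another 4 loci were called in 1 light. LOC_Os05g10620 was 16.2 and 12.8 FPKM in the white light coleoptile and 2.21 and 3.26 FPKM in the white light first leaf, a difference of -2.06 ± 0.27 (adjusted p = 0.00448). Its shaded coleoptile values were 5.86 and 3.53 FPKM, still above the shaded first leaf at 2.04 and 2.07 FPKM, but that difference of -0.87 ± 0.27 did not pass (adjusted p = 0.0938). LOC_Os02g38130 (-1.29) and LOC_Os10g33760 (1.00) were also called in white light alone. LOC_Os04g43560 was called in shade alone, with 1.75 and 1.45 FPKM in the shaded coleoptile and 6.41 and 4.61 FPKM in the shaded first leaf, a difference of 1.31 ± 0.31 (adjusted p = 0.0384). For all 4 the difference between the lights was tested as the difference of shade responses and did not pass; for LOC_Os05g10620 it was 1.19 ± 0.38 (adjusted p = 0.714).

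What 1 h of shade did in the coleoptile was asked next. By limma 0 of the 65 NAC loci were called, against 0.0428% of all tested loci (9 loci). At an unadjusted p under 0.05 there were 16 NAC loci, 15 lower and 1 higher in shade, which is 24.6% against 9.91% of all tested loci (5.74% lower and 4.17% higher). The shaded libraries lay below both white light libraries for 26 NAC loci (40.0%, against 15.3% of all) and above both for 7 (10.8%, against 17.3%). The median difference was -0.14, against 0.02 over all tested loci.

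In LOC_Os04g43560 the replicates lay close together within each coleoptile group. It stood at 10.2 and 14.1 FPKM in white light and 1.75 and 1.45 in shade, so that the groups were well apart. The difference was -2.33 ± 0.31 and did not pass (adjusted p = 0.104). Without white light replicate 1 it was -2.54, and without white light replicate 2 it was -2.11. Each of these fits has a single white light coleoptile library. In the first leaf the same locus was 8.24 and 4.44 FPKM in white light and 6.41 and 4.61 in shade, which overlap.

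LOC_Os03g60080, the most abundant member, was 536 and 282 FPKM in white light and 93.6 and 76.1 in shade. Both shaded values were under both white light values, but the white light replicates were themselves far apart. Its difference was -2.19 ± 0.44 (adjusted p = 0.143). LOC_Os01g60020, annotated as a NAC domain transcription factor, had 79.1 and 8.60 FPKM in white light and 3.28 and 2.19 in shade, a difference of -2.91 ± 0.83 (adjusted p = 0.257). White light replicate 1 was the highest of the 8 libraries for this locus, and without it the difference was -1.38. Without white light replicate 2 the difference was -2.65 for LOC_Os03g60080 and -4.44 for LOC_Os01g60020.

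Further loci with this order of libraries did not pass either. LOC_Os01g66120 was 184 and 75.4 FPKM in white light and 41.3 and 33.7 in shade, a difference of -1.63 (adjusted p = 0.241). LOC_Os01g15640 was 70.5 and 42.9 FPKM in white light and 15.9 and 16.4 in shade, a difference of -1.71 (adjusted p = 0.14). LOC_Os12g03050 stood at 9.19 and 1.18 FPKM in white light and 0.242 and 0.278 in shade, a difference of -1.90 (adjusted p = 0.338). Its neighbour LOC_Os12g03040 did overlap, with 8.20 and 3.09 FPKM in white light and 3.33 and 1.92 in shade, a difference of -0.79 (adjusted p = 0.622). On the higher side, LOC_Os08g10080 differed by 0.84, LOC_Os07g48450 by 0.53, LOC_Os01g70110 by 0.53 and LOC_Os01g09550 by 0.43. The coleoptile values of LOC_Os08g10080 overlap, at 0.909 and 5.28 FPKM in white light and 4.92 and 5.51 in shade. Without white light replicate 1, the low library, its difference was -0.02.

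**Figure D4:**
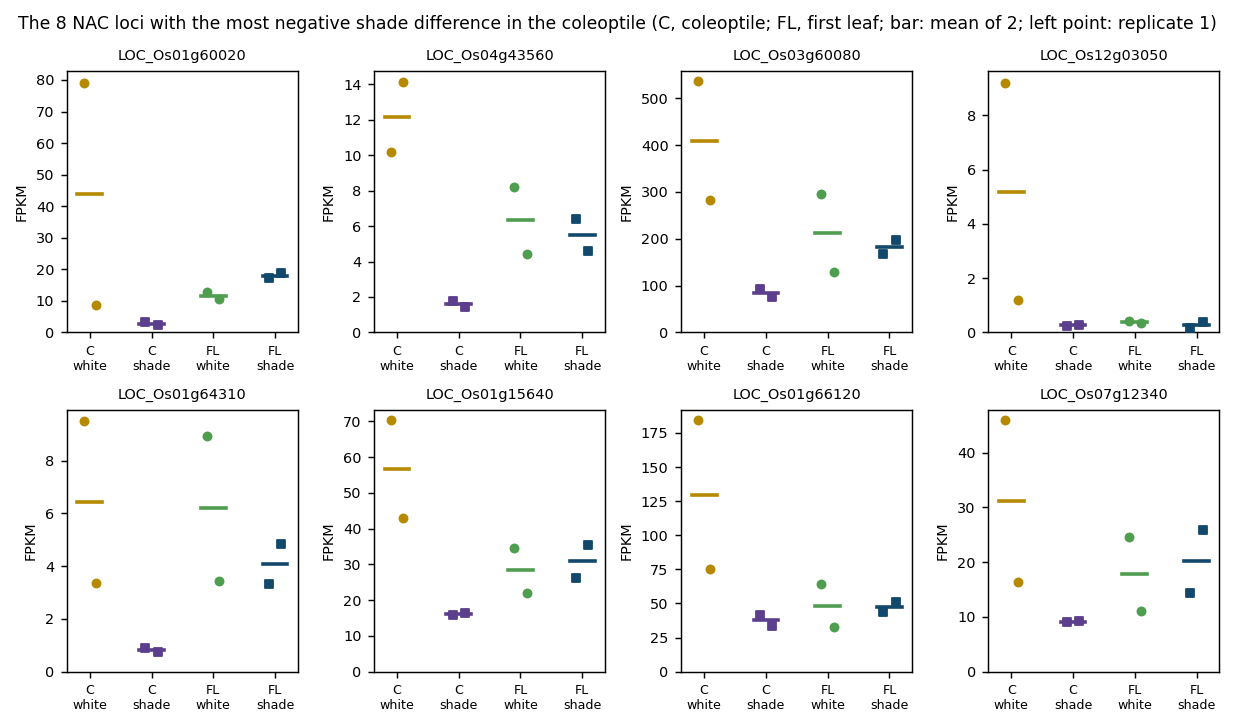
FPKM per library of NAC loci with large shade differences that did not pass the test, on linear axes that start at 0, with 1 point per library, groups along the x axis and bars for the mean of 2. For LOC_Os01g60020 coleoptile white light replicate 1 stands at 79.1 FPKM and the other coleoptile libraries at 2.19 to 8.60 FPKM, whereas both white light coleoptile points of LOC_Os04g43560 are above its shaded ones.

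Coleoptile white light replicate 1 stood apart from the other coleoptile libraries for part of the family. Its NAC loci summed to 2117 FPKM, against 1449 in white light replicate 2 and 1227 and 1041 in shade. For 16 NAC loci (24.6%) it was more than 2-fold higher than the other 3 coleoptile libraries on average, against 10.9% of all tested loci. Among these 16, LOC_Os02g41450 was near the floor, at 0.262 FPKM in that library. The same count was 2 for white light replicate 2 (against 1.28%) and 0 for each shaded library (against 1.75% and 0.838%). Of the 12 NAC loci that were more than 1 unit of log2(FPKM + 1) lower in shade, 10 were among those 16. Both counts use the same libraries, with the shaded ones in each, so part of this overlap is built in. Of the 12, 11 had both shaded libraries below both white light libraries. Another 14 NAC loci with that order of libraries were not among the 16. Annotated ZIM domain genes (jasmonate signalling repressors, 7 loci) summed to 2481 FPKM in that library, 992 in white light replicate 2 and 283 and 281 in the shaded coleoptile. WRKY genes (105 loci of a stress-related transcription factor family) summed to 2617, 1127, 743 and 722 FPKM in the same libraries. White light replicate 1 was above the others by the same 2-fold rule for 31 of 70 tested WRKY loci (44.3%). It was so for 6 of 6 tested ZIM domain loci. In 2 further transcription factor families, AP2 and MYB, it was 25 of 72 (34.7%) and 25 of 166 (15.1%). The part of the ZIM domain and WRKY levels in the NAC differences was not tested.

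Leaving out white light replicate 1 gave 1 called NAC locus, LOC_Os04g43560, a median of -0.08 and 39 negative differences of 65, with 1.10% of all tested loci called. Leaving out white light replicate 2 gave 14 called loci, a median of -0.24 and 48 negative differences, with 8.28% of all tested loci called. The 13 lower in shade were LOC_Os01g15640, LOC_Os01g60020, LOC_Os01g64310, LOC_Os01g66120, LOC_Os03g21030, LOC_Os03g60080, LOC_Os04g43560, LOC_Os05g10620, LOC_Os07g12340, LOC_Os10g21560, LOC_Os11g03300, LOC_Os12g03040 and LOC_Os12g03050, and the 1 higher was LOC_Os08g10080. With all libraries 45 were negative. In all 3 fits 33 NAC loci were negative and 11 positive. Each of the fits without 1 library has a single white light coleoptile library, whose spread is taken from the other groups.

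**Figure D5:**
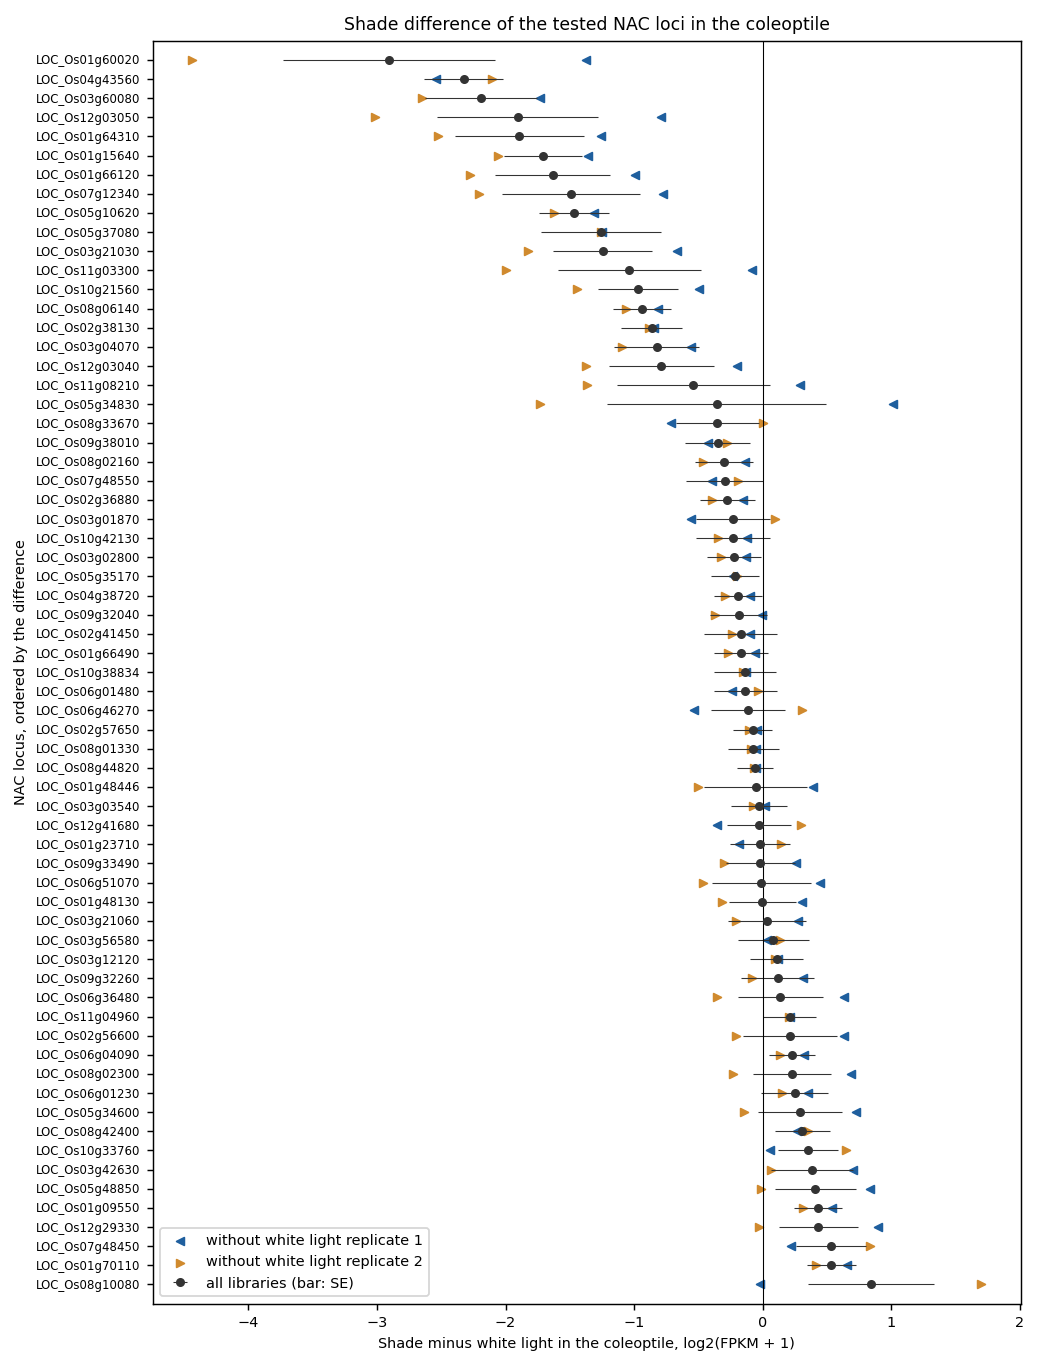
Shade minus white light in the coleoptile for the 65 tested NAC loci, in log2(FPKM + 1), ordered by the difference with all libraries (circles, bars for SE). Triangles give the difference without 1 of the white light replicates; for LOC_Os01g60020 they lie far apart and for LOC_Os04g43560 they lie within 1 unit of each other.

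In the first leaf, no NAC locus passed the test after 1 h of shade. By limma 0 of 65 NAC loci were called, as were 0 of all tested loci. At an unadjusted p under 0.05 there were 3 NAC loci, all higher in shade, which is 4.62% against 5.48% of all tested loci (3.01% higher). Differences ran from -0.49 to 0.90, and 0 loci passed 1 unit of log2(FPKM + 1). The median was 0.05, against 0.01 over all tested loci. Shaded libraries lay above both white light libraries for 13 NAC loci (21.3% of all tested loci did so) and below both for 7 (10.8%, against 18.3%).

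The smallest p was that of LOC_Os12g41680, at 14.6 and 15.0 FPKM in white light and 23.0 and 31.0 in shade, without overlap. It was 0.81 ± 0.25 (unadjusted p = 0.0133, limma adjusted p = 0.654). LOC_Os08g10080 had the highest value at 0.90 ± 0.49, and LOC_Os07g48450 (0.79) and LOC_Os12g29330 (0.63) followed. On the lower side were LOC_Os11g03300 (-0.49), LOC_Os10g21560 (-0.44), LOC_Os02g38130 (-0.28) and LOC_Os05g10620 (-0.27). For 6 NAC loci first leaf white light replicate 1 was more than 2-fold higher than the other first leaf libraries on average (9.23%, against 2.30% of all tested loci). Among them, LOC_Os03g01870, LOC_Os11g03300 and LOC_Os12g03040 were near the floor, at 0.0831, 0.754 and 0.330 FPKM in that library. These were below 1 FPKM in every first leaf library, where such a ratio means little. In both tissues together, white light replicate 1 was over 1.5 times replicate 2 for 13 NAC loci, against 4.35% of all tested loci, and the reverse held for 1 (against 1.23%).

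Whether the tissues answered shade differently was tested as the first leaf response minus the coleoptile response. By limma 0 of 65 NAC loci were called, against 0.0190% of all tested loci (4 loci). At an unadjusted p under 0.05 there were 10, all with a higher value in the first leaf, which is 15.4% against 5.58% of all tested loci (3.64% with a higher value). The median was 0.22, against -0.03 over all tested loci. LOC_Os01g60020 had the largest value at 3.50 ± 1.17 (adjusted p = 0.738): shade and white light differed by -2.91 in the coleoptile and 0.59 in the first leaf. Put the other way, it differed between first leaf and coleoptile by -1.14 in white light and 2.36 in shade, and neither passed (adjusted p = 0.465 and 0.13). In shade it was 3.28 and 2.19 FPKM in the coleoptile and 17.2 and 18.7 in the first leaf, without overlap. The spread used for that comparison is shared by all groups. It includes the white light coleoptile pair of this locus, at 79.1 and 8.60 FPKM. For LOC_Os04g43560 the difference of shade responses was 2.19 ± 0.44 (adjusted p = 0.372), and for LOC_Os03g60080 and LOC_Os01g15640 it was 2.09 and 1.85. Without coleoptile white light replicate 1, 0 NAC loci were called by limma (7 at an unadjusted p under 0.05), against 0.247% of all tested loci. Without replicate 2, 5 were called, against 4.22% of all tested loci (887 loci), namely LOC_Os01g15640, LOC_Os01g60020, LOC_Os01g66120, LOC_Os03g21030 and LOC_Os12g03050.

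Genes of processes that NAC factors are known to control were read from the same fit. Of 5 secondary wall loci and 6 loci of chlorophyll breakdown, 0 were called in any comparison, where 11.0% and 10.3% of all tested loci were called between the tissues in white light and shade. At an unadjusted p under 0.05 between the tissues, 4 of the 5 secondary wall loci passed in white light and 3 in shade, all higher in the first leaf. For chlorophyll breakdown it was 1 of 6, lower in the first leaf, in white light and 0 in shade. Over all tested loci 25.0% passed in white light and 24.3% in shade. In the shade comparisons the only such locus was 1 of chlorophyll breakdown, lower in the shaded coleoptile. Nearest to a call was CESA4, a cellulose synthase of the secondary wall. It was 81.9 and 46.4 FPKM in the white light coleoptile and 129 and 142 in the white light first leaf, a difference of 1.12 (limma adjusted p = 0.0523). In shade it was 81.1 and 60.9 FPKM in the coleoptile and 133 and 168 in the first leaf, a difference of 1.08 (adjusted p = 0.0611). The stay-green protein, which starts chlorophyll removal in senescing leaves, stood at 41.3 and 23.4 FPKM in the white light coleoptile and 20.8 and 14.03 in the shaded coleoptile (adjusted p = 0.436). White light replicate 1 was not the higher one throughout that list: red chlorophyll catabolite reductase was 10.3 and 17.2 FPKM in the white light coleoptile.

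Counts of called loci between the tissues in other transcription factor families are given for reading beside those of the NAC loci, without a test between families. Over all tested loci the shares called were 11.0% in white light, 10.3% in shade and 7.01% in both. Of 70 tested WRKY loci, 11 (15.7%) were called in white light and 9 (12.9%) in shade, with 7 (10%) in both. Among 72 AP2 loci the counts were 13 (18.1%), 12 (16.7%) and 6 (8.33%). For 166 MYB loci they were 34 (20.5%), 25 (15.1%) and 18 (10.8%). Of 6 ZIM domain loci 1 was called in white light and 0 in shade. For shade in the coleoptile, a limma unadjusted p under 0.05 was reached by 37.1% of WRKY, 20.8% of AP2 and 16.3% of MYB loci. Shaded libraries lay below both white light libraries for 42.9% of WRKY, 36.1% of AP2 and 20.5% of MYB loci. In the difference of shade responses, 21.4% of WRKY, 23.6% of AP2 and 7.23% of MYB loci reached such a p. In this order the shares were 24.6%, 40.0% and 15.4% of NAC loci, and 9.91%, 15.3% and 5.58% of all tested loci.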

How the data were processed

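The authors deposited 1 table of FPKM per locus for 8 libraries, with an annotation text for each locus. The submitters' processing notes name TopHat2 2.0.14 and Bowtie2 2.2.3 (aligners) beside Trim Galore 0.3.7. They also name Cuffdiff, Cuffnorm and Cufflinks, each 2.2.1. Reads were 150 bp long, per the labels. Genome build and treatment of reads shared by gene copies: not given in the sources used here. A value listed at 0 may be an estimate that failed, since 20 loci whose median reached 10 FPKM had such a value. Of the tested NAC loci, 3 had a value of 0. For each of these the tissue with the 0 reached at most 0.312 FPKM, where a failed estimate cannot be told from a low level.

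From the deposited FPKM, log2(FPKM + 1) was tested in R 4.3.3 with limma 3.58.1, on loci whose mean reached 1 FPKM across the 8 libraries. The 4 groups were fitted together with a trended empirical Bayes spread (4 residual and 3.26 prior degrees of freedom). Differences are log2 values on this scale, which understates those of low loci. Calls needed an adjusted p (Benjamini-Hochberg, over all 21014 tested loci) under 0.05. The fit was tested on data simulated with the same spread of a locus in all 4 groups, so a noisier group was not covered. Alternatives were another pseudocount, other filters and scalings, the replicate number as a block, only the groups compared, and each library left out.

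Members and lists were chosen with earlier results of these data known. Loci named by rule were the 10 highest in mean FPKM, the 8 highest and 8 lowest called differences of a comparison (or, with fewer than 5 called, the 4 highest and 4 lowest among the 20 smallest p-values), those called in both tissue comparisons with opposite sign or in the difference of shade responses, NAC neighbours, and at most 4 called members of other lists per comparison. Called members of the WRKY, AP2, MYB and ZIM domain lists are given as counts. Any further locus was picked with its values in view.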

Additional observations from a re-analysis of the deposited data

How the results depend on the processing

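With only the libraries of the comparison in the fit, 8 NAC loci were called between the tissues in white light and 36 in shade, against 23 and 21 with all groups. Over all tested loci these fits called 527 and 4005, against 2303 and 2164. Leaving out 1 library at a time gave 10 to 31 called NAC loci between the tissues in white light and 6 to 34 in shade. In the same fits 3.53% to 19.1% of all tested loci were called in white light and 2.57% to 20.3% in shade. Leaving out 1 library gave 0 to 14 for shade in the coleoptile, 0 to 0 for shade in the first leaf and 0 to 5 for the difference of shade responses. The other settings (pseudocount 0.1, no filter, a mean of at least 5 FPKM, equal medians, quantile normalization) gave 16 to 25 in white light and 15 to 22 in shade. No filter left 99 NAC loci to test, a mean of at least 5 FPKM left 41, and the rest left 65. The called share of tested NAC loci was 19.2% to 39% in white light and 17.2% to 36.6% in shade. It was 5.86% to 11.9% and 6% to 11.4% of all tested loci. With the replicate number as a block the counts were 0 for coleoptile shade, first leaf shade and their difference (0.019%, 0.00952% and 0% of all tested loci). Between the tissues they were 23 in white light and 18 in shade (9.53% and 8.76% of all). Of these, 22 and 18 were called without the block too. Over all tested loci, deviations of same-numbered libraries correlated at -0.148 to 0.0854, and the numbers were not taken to pair the libraries. Among the NAC loci alone, 13 were over 1.5 times higher in white light replicate 1 than in replicate 2 in both tissues, and 1 was the reverse. Of the differences of loci named by rule within a comparison, 0 turned their sign. LOC_Os08g10080 was not named by rule for coleoptile shade. Its difference there was 0.84 with all libraries and -0.02 without white light replicate 1. The depth per library is unknown, which leaves the counting error of low loci unmeasured.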
